A study of Mus musculus with 6 samples.

Results

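Genes that move cholesterol and phospholipid out of cells, or that control this flow, were read in the aorta of young and aged mice. They are *Pltp*, *Apoe*, *Abca1*, *Abcg1*, *Scarb1*, *Nr1h2*, *Nr1h3* and *Mylip*, which make 8 of the 55335 genes in the count file. They were taken by symbol as the receptors and lipid transport genes of 1 pathway, and *Pltp* was selected on its higher level in aged aorta in these same libraries. Identifiers of the genes were ENSMUSG00000017754 (*Pltp*), ENSMUSG00000002985 (*Apoe*), ENSMUSG00000015243 (*Abca1*), ENSMUSG00000024030 (*Abcg1*), ENSMUSG00000037936 (*Scarb1*), ENSMUSG00000060601 (*Nr1h2*), ENSMUSG00000002108 (*Nr1h3*) and ENSMUSG00000038175 (*Mylip*). All 8 had enough counts to be tested. Since the difference between ages was in view when the set was made, that difference is given below as a description, with a standard error (SE) and no p value, for each of the 8 genes. RNA came from the aorta of wild-type C57BL/6 mice (c57b6l in the sample labels) aged 6 weeks (young, 3 mice) or 6 months (aged, 3 mice). The study's methods describe male animals, with the fat around the vessel dissected off and a piece of aorta collected from each mouse. No treatment is named in the sample labels. Mice of 6 months are mature adults rather than old animals, which limits the aged group as a model of old age.

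Liver X receptors (LXRs) are nuclear receptors that bind oxysterols, the oxidized forms of cholesterol, and switch on genes that lower the sterol content of a cell. Nr1h3 (LXR alpha) and Nr1h2 (LXR beta) both act as partners of the retinoid X receptors. Their targets include the transporters Abca1 and Abcg1, which pass lipid to apolipoprotein A-I and to high-density lipoprotein (HDL), and the secreted proteins Apoe and Pltp. In the vessel wall this route is best known for unloading macrophages that have taken up lipoproteins.

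Values are given as CPM, read counts brought to a library of fixed size after TMM scaling, unless FPKM is named. FPKM also divides by gene length and is used where 1 gene is compared with another. Total counts lay between 31049632 and 45832185 per library. Markers of smooth muscle, the main cell of the aortic media, were abundant throughout, with a summed level between 28902 and 41684 CPM for 8 genes. A pair of libraries stood apart. Young replicate 1 had *Xist*, the RNA that silences an X chromosome in female cells, at 305.6 CPM against 0.636 or less elsewhere, and *Ddx3y* of the Y chromosome at 1.09 CPM against 44.8 or more, which goes against the male sex stated in the methods. The same library had the clock gene *Arntl* at 49.8 CPM against 0.747 to 8.14 in the others. Aged replicate 2 had the highest summed level of brown fat markers (1957 CPM, against 135 to 638 in the rest), and on the first principal component it lay at -13.4, on the side of the young libraries (-52.2 to -10.3) and away from the other aged ones (53.8 and 62.7). Genes of the mitochondrial genome took 14.9% to 21.2% of counts in young and 23.1% to 30.4% in aged libraries. Both of the libraries that stood apart are therefore also left out in turn below.

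The upstream stretches of 3 LXR targets are shown because these genes took different courses, with *Pltp* higher in every aged library, *Abca1* higher in part of them and *Mylip* low in 1. Each stretch holds the 250 bases before a RefSeq start site on GRCm38.p6, written 5′ to 3′ along the gene. Capitals mark the CCAAT box, the GC box GGGCGG, the TATA box TATAAA and the E-box CACGTG, on either strand, and in *Abca1* also both copies of a repeat described after the sequences.
Pltp (chr2:164857709-164857958, minus strand): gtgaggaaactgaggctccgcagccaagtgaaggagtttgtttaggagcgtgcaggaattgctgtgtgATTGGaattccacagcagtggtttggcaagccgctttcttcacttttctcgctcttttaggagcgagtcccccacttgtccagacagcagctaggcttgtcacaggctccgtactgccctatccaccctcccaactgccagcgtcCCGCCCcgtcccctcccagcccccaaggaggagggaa
Abca1 (chr4:53159896-53160145, minus strand): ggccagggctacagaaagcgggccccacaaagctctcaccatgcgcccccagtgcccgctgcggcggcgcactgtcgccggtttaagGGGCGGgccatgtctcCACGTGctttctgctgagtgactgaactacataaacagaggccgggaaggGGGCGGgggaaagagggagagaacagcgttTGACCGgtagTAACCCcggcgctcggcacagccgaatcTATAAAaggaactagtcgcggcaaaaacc
Mylip (chr13:45389492-45389741, plus strand): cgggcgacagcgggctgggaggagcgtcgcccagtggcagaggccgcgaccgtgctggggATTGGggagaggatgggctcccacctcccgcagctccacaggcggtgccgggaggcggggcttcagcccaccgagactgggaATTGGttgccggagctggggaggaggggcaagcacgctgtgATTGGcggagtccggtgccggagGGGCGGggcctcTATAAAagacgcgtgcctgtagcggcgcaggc

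The classical LXR element is a direct repeat of AGGTCA with 4 bases between the copies. With at most 1 base changed in each copy, on either strand, it was found in 0 of the 9 promoters listed for 6 of the 8 genes, and in 1.48% of all 32851 promoters. With up to 3 changes over both copies it was found in *Abca1* alone, from base -67 to base -52 before the start site, as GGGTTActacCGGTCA on the opposite strand. That looser search matched 18.5% of all promoters. CACGTG, the E-box read by clock and other factors, was in *Abca1* (6.02% of all promoters). CCAAT was in *Pltp* and *Mylip* (33.8% of all), TATAAA in *Abca1*, *Apoe* and *Mylip* (12.4%), and GGGCGG in *Abca1*, *Mylip* and *Pltp* (32.7%). The *Mylip* stretch held 71.2% G and C, *Abca1* 61.6% and *Pltp* 57.6%, against a median of 52.4% over all promoters. These matches describe letters in a short window and not sites of binding.

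*Pltp* and *Apoe* encode the secreted proteins among the 8. Pltp carries phospholipid between lipoproteins and remodels HDL, and its gene lies on chromosome 2 of GRCm38 from 164839518 to 164857711 (GENCODE M21). It was at 26.2, 23.7 and 23.1 CPM in young replicates 1, 2 and 3, and at 88.2, 36.8 and 73.6 CPM in aged replicates 1, 2 and 3. The groups did not overlap, the young mice lay close together, and aged replicate 2 stood nearer to the young libraries than to the other aged ones. The means were 24.3 ± 1.64 CPM (SD, n = 3) and 66.2 ± 26.5 CPM (SD, n = 3), a log2 fold change of 1.45 (SE 0.31), or 2.72-fold. This was the difference on which the gene was selected. It was 1.51 (SE 0.38) without young replicate 1, 1.74 (SE 0.17) without aged replicate 2 and 1.18 without aged replicate 1.

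The 3′ end of *Pltp* overlaps that of *Ctsa*, the gene of lysosomal cathepsin A on the opposite strand. They share 495 bases, or 19.3% of the exonic bases of *Pltp*, and *Ctsa* had 35861 counts over all libraries against 9287 for *Pltp*. Since the sources used here do not state whether the counting used strand, reads in the shared stretch cannot be assigned with certainty. *Ctsa* was at 165, 155 and 136 CPM in young and at 215, 162 and 162 CPM in aged replicates 1, 2 and 3, so its groups overlapped. Its log2 fold change was 0.24 (SE 0.18, adjusted p = 0.657 from edgeR). The part of shared reads in the level of *Pltp* was not tested.

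*Apoe*, the apolipoprotein that carries cholesterol away from macrophages and is cleared by lipoprotein receptors, was the most abundant of the 8 genes and the most variable. It lies on chromosome 7 from 19696109 to 19699188. Its levels were 228, 350.5 and 121 CPM in young replicates 1, 2 and 3 and 262, 96.1 and 366 CPM in aged replicates 1, 2 and 3. Low and high mice occurred at both ages and the groups overlapped almost fully. The means of 233 ± 115 and 241 ± 136 CPM (SD, n = 3 each) differed by 0.051 on the log2 scale (SE 0.53), and this sign turned to -0.38 without aged replicate 3 and to -0.013 without aged replicate 1. The SD within groups was 0.90 on the log2 scale, while counting alone would give 0.018, and the median SD over all genes tested was 0.35. As FPKM, *Pltp* divided by *Apoe* lay between 0.0564 and 0.160 in young and between 0.169 and 0.322 in aged aorta. This ratio contains *Pltp*, which was selected on its difference. It was highest in aged replicate 2, where *Apoe* was lowest.

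**Figure D1:**
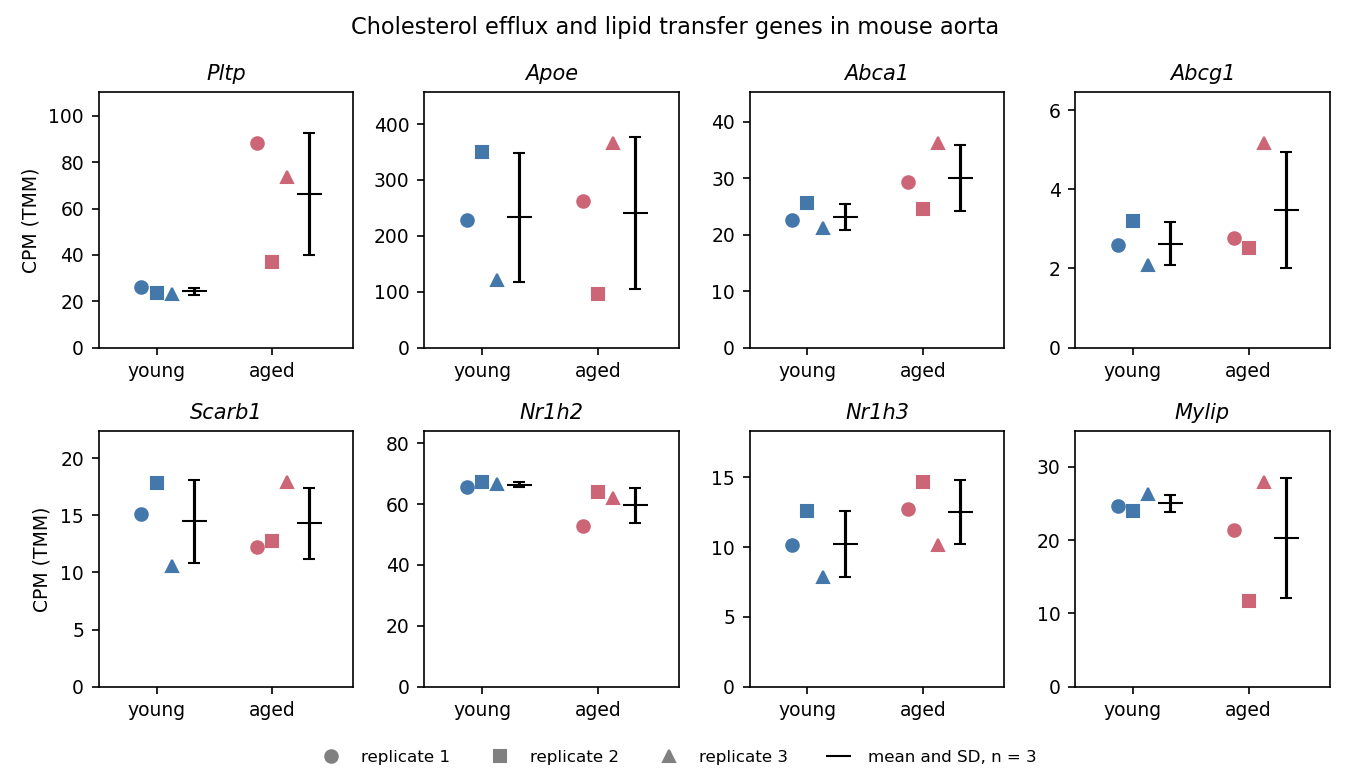
Level of the 8 genes in each library, in CPM after TMM scaling, with young mice in blue and aged mice in red and a symbol for each replicate number. Bars give mean and SD of 3 mice, and each panel has its own axis from 0. The aged points of *Pltp* (36.8 to 88.2 CPM) lie above all young points (23.1 to 26.2 CPM), while those of *Apoe* spread from 96.1 to 366 CPM.

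The transporters of the cell membrane differed less. Abca1, which loads lipid onto apolipoprotein A-I, is encoded on chromosome 4 from 53030787 to 53159895. *Abca1* was at 22.7, 25.6 and 21.2 CPM in young and at 29.3, 24.6 and 36.2 CPM in aged replicates 1, 2 and 3. Aged replicates 1 and 3 lay above all young ones, and replicate 2 lay among them. The log2 fold change was 0.37 (SE 0.19), and 0.22 without aged replicate 3. *Abcg1*, whose product passes cholesterol to HDL, lies on chromosome 17 from 31057675 to 31117988 and was the scarcest of the 8 genes, with 72 to 146 counts per library. Its levels were 2.60, 3.19 and 2.10 CPM in young and 2.77, 2.52 and 5.17 CPM in aged replicates 1, 2 and 3. Aged replicate 3 alone stood above the rest, and the log2 fold change of 0.40 (SE 0.38) became 0.009 without it.

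Scarb1, the HDL receptor that takes up cholesterol esters and also lets free cholesterol pass in both directions, is encoded on chromosome 5 from 125277087 to 125341094. *Scarb1* was at 15.1, 17.8 and 10.5 CPM in young and at 12.2, 12.8 and 17.9 CPM in aged replicates 1, 2 and 3. The ranges of both ages nearly coincided. Its log2 fold change was -0.019 (SE 0.26), and it took the other sign in 4 of 14 alternative settings, between -0.21 and 0.17.

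Of the LXRs, *Nr1h2* was the steadiest gene of the set. It lies on chromosome 7 from 44549616 to 44553951. It was at 65.5, 67.2 and 66.5 CPM in young and at 52.9, 63.9 and 61.9 CPM in aged replicates 1, 2 and 3. Every aged library lay below every young one, by a margin that was small except in aged replicate 1. The means were 66.4 ± 0.879 and 59.6 ± 5.85 CPM (SD, n = 3 each), with a log2 fold change of -0.16 (SE 0.14), or -0.079 without aged replicate 1. *Nr1h3*, on chromosome 2 from 91184061 to 91202834, was at 10.1, 12.6 and 7.87 CPM in young and at 12.7, 14.7 and 10.1 CPM in aged replicates 1, 2 and 3. Its groups overlapped, with a log2 fold change of 0.29 (SE 0.25) that ranged from 0.14 to 0.48 with 1 library left out. In FPKM, which is per length, *Nr1h2* exceeded *Nr1h3* in every library, with a ratio of 5.09 ± 1.22 in young and 3.67 ± 0.811 in aged aorta (SD, n = 3 each), and the ratios of both ages overlapped.

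*Mylip* encodes the ubiquitin ligase also called IDOL, by which LXRs mark lipoprotein receptors for degradation, and lies on chromosome 13 from 45389742 to 45412022. It was at 24.7, 24.0 and 26.3 CPM in young and at 21.5, 11.6 and 27.9 CPM in aged replicates 1, 2 and 3. The young mice were close together, and aged replicate 2 was far below all other libraries. The log2 fold change of -0.30 (SE 0.30) came down to -0.019 without that library. Among receptors on which Mylip acts, *Vldlr* (-0.19, SE 0.18, adjusted p = 0.709) and *Lrp8* (-0.064, SE 0.36, adjusted p = 0.961, both from edgeR) had overlapping groups.

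**Figure D2:**
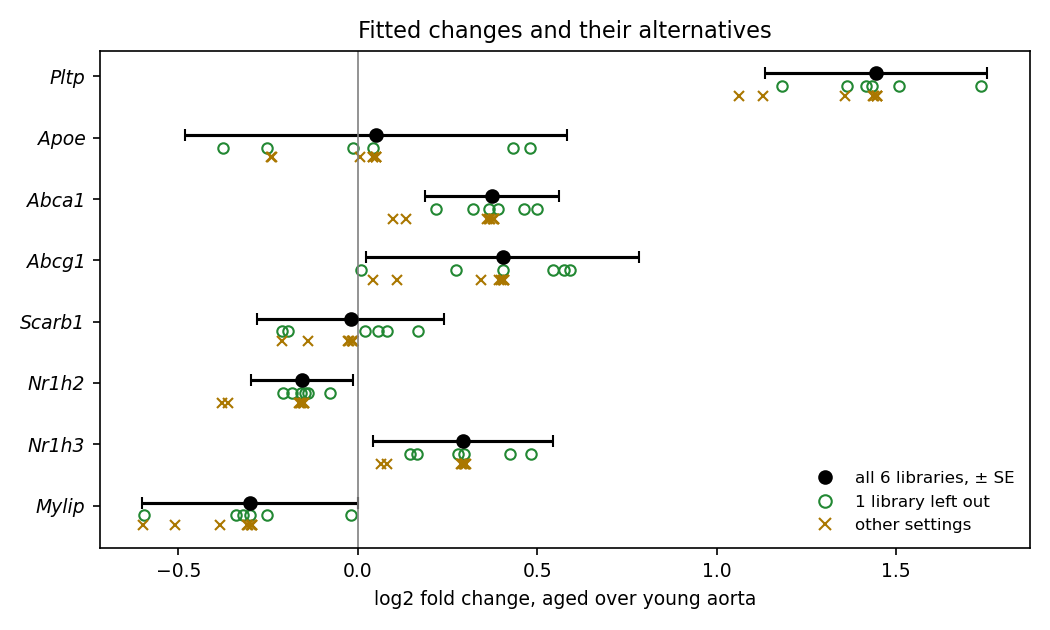
Fitted log2 fold change of each gene in aged over young aorta. Black points use all 6 libraries with bars of 1 standard error, green circles leave out 1 library and crosses give the other settings. *Pltp* stays between 1.06 and 1.74, whereas *Apoe* and *Scarb1* lie on both sides of 0.

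A gene was called where its Benjamini-Hochberg adjusted p was below 0.05. By the quasi-likelihood test of edgeR, 0 of the 8 genes were called, as were 0.00% of all 16612 genes tested. Of the latter, 1723 had an unadjusted p below 0.05, and the lowest adjusted p was 0.189. DESeq2 called 1 of the 8 genes higher in aged aorta, *Pltp*, beside 1.48% of its 14955 genes, and 0 of the 8 lower, beside 0.782%. Aged libraries all lay above young ones for 1 of the 8, *Pltp*, as for 7.74% of genes tested, and all below for 1 of the 8, *Nr1h2*, as for 8.78%. Without aged replicate 2, the aged library lowest in *Pltp*, edgeR called 110 of 17147 genes tested, *Pltp* among them. Because *Pltp* was selected on this difference, these counts and calls say nothing further about it.

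Without young replicate 1 the log2 fold changes of the other genes were close to those given above, at 0.043 for *Apoe*, 0.37 for *Abca1*, 0.41 for *Abcg1*, 0.021 for *Scarb1*, -0.16 for *Nr1h2*, 0.30 for *Nr1h3* and -0.30 for *Mylip*. Without aged replicate 2 they were 0.43 for *Apoe*, 0.50 for *Abca1*, 0.59 for *Abcg1*, 0.056 for *Scarb1*, -0.21 for *Nr1h2*, 0.16 for *Nr1h3* and -0.019 for *Mylip*.

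On the FPKM scale the order of mean level was *Apoe* (99.9), *Nr1h2* (17.1), *Pltp* (15.5), *Mylip* (6.39), *Nr1h3* (4.05), *Abca1* (2.30), *Scarb1* (1.52) and *Abcg1* (0.369). Most neighbors in this order kept their places in all 6 libraries. The exceptions were *Nr1h2*, which exceeded *Pltp* in 4 of 6 libraries, and *Mylip*, which exceeded *Nr1h3* in 5 of 6. Within libraries, *Pltp* divided by *Nr1h2* was 0.456 to 0.526 in young mice, and 2.19, 0.760 and 1.57 in aged replicates 1, 2 and 3. That ratio also contains the difference on which *Pltp* was selected. The spread between mice was larger than counting error for each of the 8 genes, at 0.10 (*Nr1h2*) to 0.90 (*Apoe*) on the log2 scale, against 0.018 (*Apoe*) to 0.14 (*Abcg1*) from counting alone.

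Summed cell type markers were read beside *Pltp*. Macrophage markers, of which 12 of 12 were higher in aged aorta, summed to between 88.8 and 119 CPM in young mice and to 374, 130 and 289 CPM in aged replicates 1, 2 and 3. Fibroblast markers, 8 of 10 of them higher, summed to between 6019 and 7437 CPM in young mice and to 13705, 4925 and 10669 CPM in aged replicates 1, 2 and 3. The aged libraries thus had the same order for *Pltp* and for both sums, with replicate 1 first and replicate 2 last. In aged replicate 2 the fibroblast sum lay below all young libraries, while *Pltp* lay above them. The largest parts of the sum there were *Col1a2* (1573 CPM), *Gsn* (1289 CPM) and *Col1a1* (774 CPM), so its level mainly reflects these genes. They lay below all young libraries, as did *Lum* and *Pi16*. *Pdgfra* (54.5 CPM, against 44.0 to 52.7 in young) and *Dpt* (154 CPM, against 126 to 143) lay above all young libraries, and *Dcn*, *Serpinf1* and *Mfap5* lay among them. Among young mice the fibroblast sum was lowest and the macrophage sum highest in replicate 1, where *Pltp* was highest. None of these macrophage or fibroblast markers was at 0 in every library. Over the other lists, smooth muscle markers were lower for 8 of 8 genes, with overlapping sums of 33329 to 41684 CPM in young and 28902 to 34225 CPM in aged aorta. Endothelial markers reached 1765 CPM in aged replicate 3 against 402 to 547 CPM elsewhere. White fat markers (421 to 1940 CPM) and Schwann cell markers (11.9 to 30.2 CPM, with *Pmp2* at 0 throughout) were highest in aged replicate 2. Markers of hepatocytes, cells that make much of the apolipoproteins in plasma, summed to 161.5 CPM or less. Cardiac markers reached 308 CPM in young replicate 1 against 80.2 to 91.9 CPM elsewhere, and lymphocyte markers stayed at 9.66 CPM or less. In whole tissue, fewer cells of a type and less RNA per cell cannot be told apart, and the part of these cell types in the levels of the 8 genes was not tested.

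**Figure D3:**
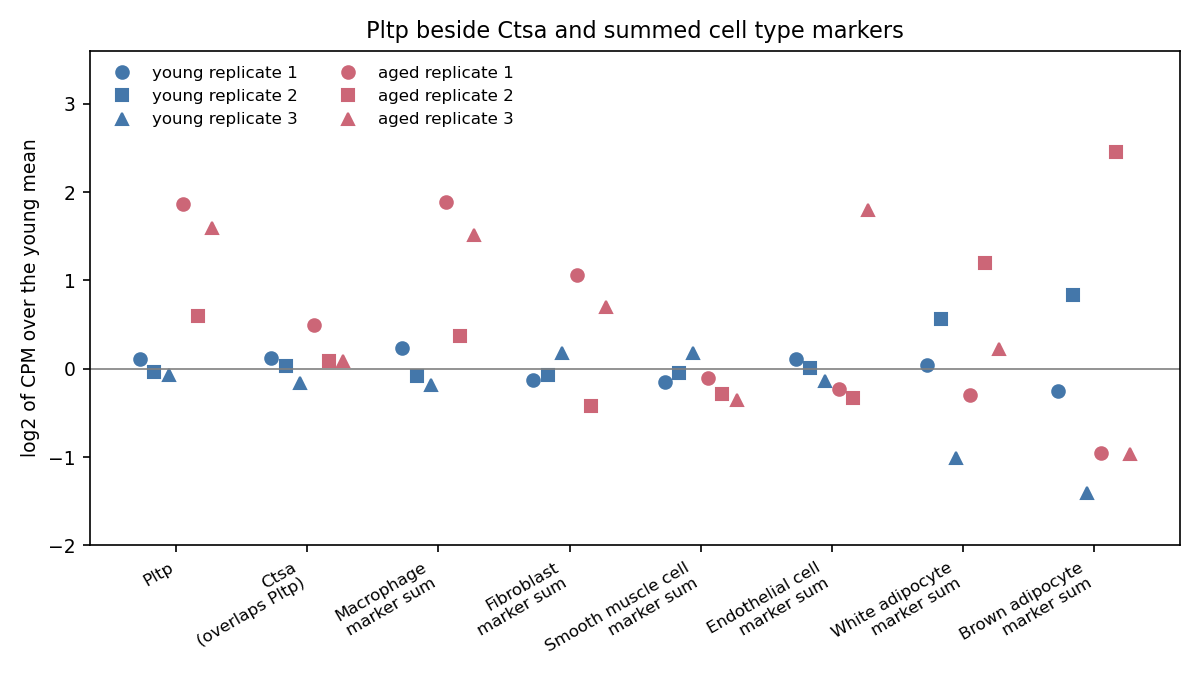
*Pltp*, the overlapping gene *Ctsa* and the summed markers of 6 cell types in each library, as log2 of the CPM over the mean of the 3 young mice (blue, young; red, aged; symbols, replicates). *Pltp*, the macrophage sum (130 to 374 CPM in aged mice) and the fibroblast sum (4925 to 13705 CPM) are all highest in aged replicate 1 and lowest, among aged mice, in aged replicate 2.

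The 5 tested genes whose centered log2 CPM profiles over the 6 libraries lay nearest to that of *Pltp* included *Gm9780*, *Gm22133*, *Chd3os* and *Aif1*, at a root mean square difference of 0.11 to 0.13 on the log2 scale. *Aif1*, a marker of macrophages, had means of 0.963 ± 0.130 CPM in young and 2.53 ± 0.826 CPM in aged libraries (SD, n = 3 each). *Gm22133* lies wholly within *Ftl1*, the gene of ferritin light chain, so its reads cannot be told from those of *Ftl1*. Without young replicate 1, 2 of these 5 genes stayed among the nearest 5, and likewise 2 of 5 without aged replicate 2. With 16612 candidates and 6 libraries, such closeness is a description only.

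The wider pathway was read in 7 lists of 122 genes, of which 104 were tested. edgeR called 0 of these 104 (18 had an unadjusted p below 0.05, and their lowest adjusted p was 0.365), and 56 were higher and 48 lower in aged aorta. Their median log2 fold change was 0.020, and that of all genes tested was 0.020 as well. Those that DESeq2 called higher were 3 (*Abca8b*, *Lbp* and *Apod*), named after their values were seen. DESeq2 called 1.48% of its 14955 genes higher. *Apod*, or apolipoprotein D, was at a log2 fold change of 2.13 (SE 0.63, adjusted p = 0.382 from edgeR), with 59.0, 9.83 and 36.3 CPM in aged replicates 1, 2 and 3 against 4.80 to 11.7 CPM in young libraries.

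Partners and coregulators of the LXRs were mostly lower, 9 of 11 tested, with a median of -0.25 and no call in either direction by edgeR. *Rxra* was the most abundant of them per length, with means of 70.4 ± 5.48 CPM in young and 59.2 ± 9.42 CPM in aged libraries (SD, n = 3 each). Its log2 fold change was -0.25 (SE 0.17, adjusted p = 0.632 from edgeR). *Rxrb* was at -0.18 (SE 0.15) and *Rxrg* at 0.64 (SE 0.96), the latter with 4.11 CPM in aged replicate 2 and 1.67 CPM or less elsewhere. The coactivator *Ncoa3* was at -0.66 (SE 0.53), with 15.9 CPM in aged replicate 1 against 75.4 CPM or more in the other libraries.

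Enzymes that make or remove sterol ligands were higher for 5 of 8 tested genes, with a median of 0.14 and 0 calls by edgeR. *Cyp27a1*, which makes the LXR ligand 27-hydroxycholesterol, had 20.2 to 24.2 CPM in the young libraries and 42.5, 29.8 and 34.9 CPM in aged replicates 1, 2 and 3. Its groups did not overlap, with a log2 fold change of 0.71 (SE 0.18), but the adjusted p was 0.377 by edgeR. *Hsd3b7* of bile acid synthesis and *Ebp* of cholesterol synthesis had log2 fold changes of 0.36 (SE 0.19) and 0.24 (SE 0.25).

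Other LXR targets were higher for 8 of 12 genes, with a median of 0.087 and 0 calls by edgeR. *Scd1*, a fatty acid desaturase, was at 6362 CPM in aged replicate 2 and at 285 to 1122 CPM in the other libraries, so its log2 fold change of 1.52 (SE 1.18) rests on the library with the highest brown and white fat markers. *Rarres2*, which encodes the adipokine chemerin, and *Smpdl3a*, an LXR-induced phosphodiesterase, were at 0.007 (SE 0.17) and 0.15 (SE 0.19).

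Among lipoprotein receptors and their regulators, 9 of 15 were higher and edgeR called 0, with a median of 0.019. Their most abundant members per length were *Lrpap1*, a chaperone of these receptors, at a log2 fold change of 0.016 (SE 0.18), and *Lrp1*, a clearance receptor that binds Apoe, at 0.019 (SE 0.25). *Cd36*, a receptor for fatty acids and oxidized lipoproteins, was at 0.55 (SE 0.53).

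Apolipoproteins, transfer proteins and lipases split evenly, with 11 of 21 higher, a median of 0.009 and 0 calls by edgeR. *Clu*, or apolipoprotein J, was abundant, with overlapping groups (689 ± 68.4 and 693 ± 110 CPM, SD, n = 3 each). *Lpl*, the lipase of capillaries, and *Apoc1*, a neighbor of *Apoe* in the same gene cluster, were both highest in aged replicate 2, at 505 and 32.5 CPM. *Apoe* itself was lowest there. *Apoa1*, which encodes the acceptor for Abca1 and is made mainly in liver and intestine, was between 0.929 and 9.99 CPM. *Lbp*, which belongs to the same protein family as Pltp and binds lipopolysaccharide, was at 3.72, 8.02 and 6.21 CPM in young and at 37.1, 5.72 and 27.1 CPM in aged replicates 1, 2 and 3. Its log2 fold change was 1.96 (SE 0.64, adjusted p = 0.400 from edgeR), and aged replicate 2 again lay with the young mice.

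The other ABC transporters of families A and G were higher for 9 of 12 genes, with a median of 0.36 and 0 calls by edgeR. *Abca8a* was the most abundant per length, with means of 75.7 ± 31.2 CPM in young and 166 ± 108 CPM in aged libraries (SD, n = 3 each) and overlapping groups. *Abca8b* was at 14.7, 17.0 and 20.3 CPM in young and at 78.1, 20.6 and 64.0 CPM in aged replicates 1, 2 and 3, with a log2 fold change of 1.65 (SE 0.45, adjusted p = 0.377 from edgeR). *Abca2* and *Abca3* were at -0.12 (SE 0.15) and 0.30 (SE 0.20). Genes of cholesterol handling inside the cell split into 12 higher and 13 lower, with a median of -0.009 and 0 calls by edgeR. *Rab7*, a GTPase of late endosomes, was at 0.070 (SE 0.13), *Tspo*, a protein of the outer mitochondrial membrane, at 0.53 (SE 0.23) and *Scp2*, a sterol carrier, at 0.29 (SE 0.23).

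**Figure D4:**
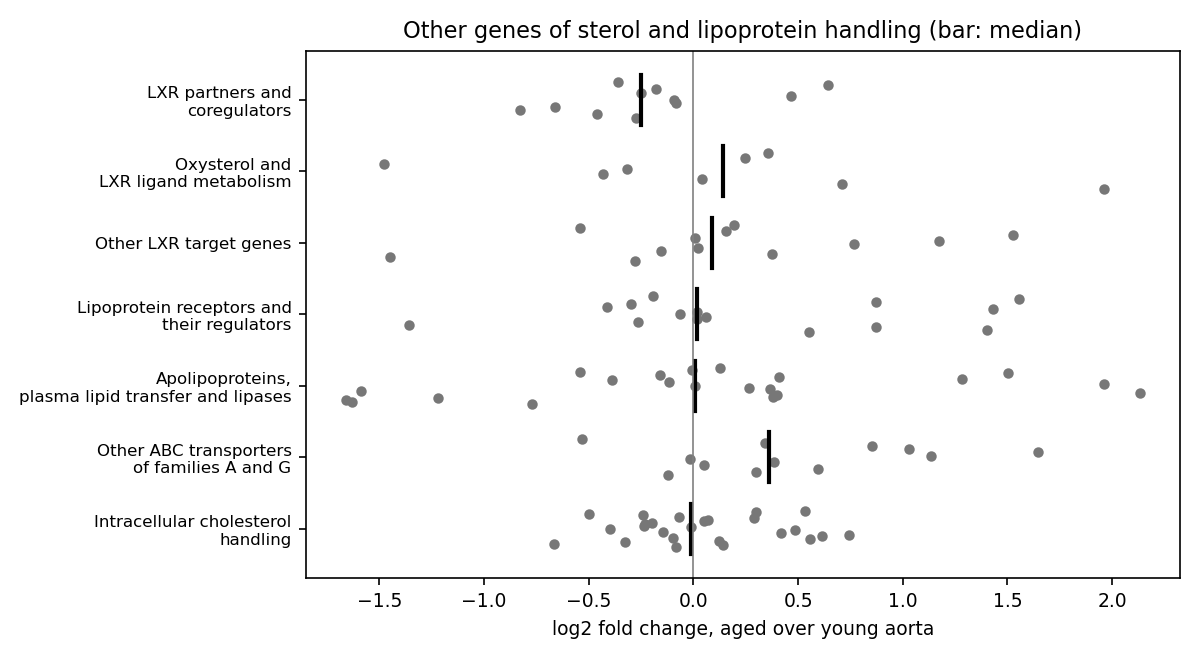
Log2 fold change in aged over young aorta of the 104 tested genes of 7 lists, 1 point per gene, with the median of each list as a bar. Medians lie between -0.25 (LXR partners and coregulators) and 0.36 (other ABC transporters), and 0 of the genes passed edgeR's test.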

How the data were processed

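RNA of 6 mouse aortas was sequenced from single ends (50 cycles, per the study's methods). The authors deposited raw read counts per gene and FPKM, scaled for gene length and library reads. The labels name mm10 as the build, while the aligner, counter and use of strand are not given in the sources used here. GENCODE M21 (GRCm38) gave positions for 55154 of 55335 identifiers.

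Counts were filtered with edgeR 4.0.16 (filterByExpr, minimum count 10, minimum total 15), scaled by TMM and fitted by quasi-likelihood in R 4.3.3 without covariates. The threshold was an adjusted p of 0.05 over all genes tested. The SE is the log2 fold change divided by the square root of F. The fit was tested on simulated data, where median fold changes were recovered. At the spread of these libraries, most of the smaller changes put in and many of the larger ones were not called. Some of the calls made were false. Alternatives were DESeq2 1.42.0 and limma 3.58.1, the latter on FPKM logged after adding 1 or 0.1. FPKM lack TMM scaling.

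The 8 genes and all lists were chosen with earlier results of these data known. Genes named are the 8, the 3 members of each list with the highest mean FPKM, *Vldlr*, *Lrp8*, *Rxra*, *Rxrb*, *Rxrg*, *Apoa1*, genes that overlap the 8 and the 5 nearest to *Pltp*, and some genes this rule selects are not reported here. *Abca8b*, *Lbp* and *Apod* fall outside it and were named for their DESeq2 calls, after their values were seen. P values set the difference between the ages against the spread between these mice, 3 per age.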

Additional observations from a re-analysis of the deposited data

How the results depend on the processing

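Other settings for all genes were size factors by RLE, testing every gene with a count, requiring 10 counts in each library, a replicate block, DESeq2, limma on FPKM, removal of genes of the mitochondrial genome with their nuclear copies, and each library left out. The count of 0 genes called became 338 with DESeq2, and with 1 library left out it ranged from 0 to 110, reached when aged replicate 2 was dropped. Genes with an unadjusted p below 0.05 numbered 1723, and 1061 to 2667 in these settings. Of the 104 other pathway genes, DESeq2 called 4, beside the 338 among all 14955 genes to which it gave an adjusted p. With 1 library left out between 0 and 2 were called. The 2 (*Abca8b* and *Lbp*) came without aged replicate 2, beside 110 of all 17147 genes tested there. The remaining settings gave 0 for both. The causes were not tested. *Pltp*, *Abca1*, *Abcg1*, *Nr1h2*, *Nr1h3* and *Mylip* had the same sign in 14 of 14 alternatives, *Scarb1* in 10 of 14 and *Apoe* in 9 of 14. Limma on FPKM moved the median of all genes to -0.12 and -0.19, and gave *Nr1h2* -0.36 and -0.38 and *Abca1* 0.099 and 0.13. With the replicate block edgeR called 0 genes, and *Pltp* was at 1.36 (SE 0.27). Deviations of libraries with the same number correlated at 0.0786, 0.117 and 0.0957, so the numbers were not taken to pair the mice, although each library correlated best with its own number. The order of the 8 genes by FPKM was the same after TMM scaling. Differences under the spread between 3 mice, and the 72 to 146 counts of *Abcg1*, limit what could be detected.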
